A study of Mus musculus with 12 samples.

Results

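The heat shock chaperones described here are Hspa1b, Hspb1, Hspa8, Hsph1, Dnajb1, Hspd1 and Hspe1. They were chosen by gene name as major chaperones of the heat shock response, through array probe sets annotated to a single gene of the list, and a gene with several probe sets is represented by the brightest of them with the others given beside it. The list holds 9 genes, of which 7, with 16 probe sets, were found among the 18193 genes measured. Hsp90ab1 and Hsf1 are not analysed here. Levels are the authors' log2 values on Affymetrix mouse arrays, and every difference below is a difference of log2 values.

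Heat shock proteins are molecular chaperones, which bind unfolded or misfolded proteins and help them to fold. In unstressed cells the transcription factor Hsf1 is held inactive by chaperones. When unfolded proteins accumulate it is released, forms trimers and binds heat shock elements, arrays of inverted nGAAn units in the promoters of chaperone genes. The inducible HSP70 genes then rise most, while Hspa8 and the mitochondrial pair Hspd1 and Hspe1 are abundant without stress. In liver these genes are known to respond to oxidative and proteotoxic damage.

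The study asked which transcripts differ when selenophosphate synthetase 1 (SPS1, gene Sephs1), a homologue of the enzyme that makes the selenium donor of selenoprotein synthesis, is lost. There were 12 arrays in 4 groups of 3. Livers labelled SPS1 KO came from male C57BL/6 mice at 3 months of age in which Sephs1 was to be removed in hepatocytes by Cre under the albumin promoter, so the other liver cells keep the gene, and control livers came from male C57BL/6 mice of the same age. F9 cells, a male mouse embryonal carcinoma line of strain 129 derived from a testicular teratoma, carried an shRNA against Sephs1 (shSPS1) or were controls. The labels do not give the genotype of the control mice, whether the control F9 cells carried another shRNA, or whether the shSPS1 cells were a clone. They do not say that the F9 samples were separate cultures either, and the p-values in F9 cells therefore rest on a spread that may be technical.

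Sephs1 itself was read first. Its brightest probe set stood at 9.89, 10.05 and 10.15 in livers labelled SPS1 KO, against 9.85, 9.74 and 9.93 in control livers, a difference of 0.19 (SE 0.14, 95% interval -0.15 to 0.53, limma adjusted p = 0.789). Its other 3 probe sets gave 0.20, 0.39 and 0.47, so none of the 4 was lower in the livers labelled SPS1 KO. Where these probe sets lie relative to the deleted part was not given in the sources used here, so they may check nothing, and the liver groups are named by their labels throughout. In F9 cells Sephs1 fell to 7.79, 7.84 and 7.77 with shSPS1, against 10.04, 10.03 and 9.94 in control cells, a 4.61-fold lower level (limma adjusted p = 1.3e-05), and the other 3 probe sets gave -1.99, -1.94 and -0.93. The liver arrays carried the hepatocyte marker Alb at 15.53 to 15.58 in livers labelled SPS1 KO and 14.77 to 15.35 in control livers. The F9 arrays carried the embryonal carcinoma marker Pou5f1 at 13.59 to 13.69 in shSPS1 cells and 13.30 to 13.67 in control cells, with Alb at 3.68 to 3.86 in shSPS1 cells and 3.84 to 4.87 in control cells. How the liver and F9 tables were normalized is not stated and their distributions differ, so no level in one is set against a level in the other.

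Promoter windows were searched for heat shock elements, the sequence that Hsf1 binds, and 4 are shown because they hold the matches by which the chaperones differ from each other. Each window runs from 250 bases before to 50 bases after a RefSeq transcription start (GRCm38.p6), written 5′ to 3′ along the gene's strand, and the capitals mark heat shock element runs found by search. A run of 2 units was GAANNTTC or TTCNNGAA, and runs of 3 or 4 units continue the alternation with 2 bases between units. Each pattern was searched on both strands, and a longer run contains the shorter ones. The windows shown are Hspa1b at chr17:34959189-34959488 on the minus strand, Hspb1 at chr5:135887669-135887968 on the plus strand, Hsph1 at chr5:149636266-149636565 on the minus strand and Hspe1 at chr1:55087898-55088197 on the plus strand.
Hspa1b: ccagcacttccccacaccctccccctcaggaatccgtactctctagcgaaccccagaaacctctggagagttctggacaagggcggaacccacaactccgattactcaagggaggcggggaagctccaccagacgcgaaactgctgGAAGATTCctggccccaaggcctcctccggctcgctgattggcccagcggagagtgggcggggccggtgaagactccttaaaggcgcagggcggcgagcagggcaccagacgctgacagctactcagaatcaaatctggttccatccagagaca
Hspb1: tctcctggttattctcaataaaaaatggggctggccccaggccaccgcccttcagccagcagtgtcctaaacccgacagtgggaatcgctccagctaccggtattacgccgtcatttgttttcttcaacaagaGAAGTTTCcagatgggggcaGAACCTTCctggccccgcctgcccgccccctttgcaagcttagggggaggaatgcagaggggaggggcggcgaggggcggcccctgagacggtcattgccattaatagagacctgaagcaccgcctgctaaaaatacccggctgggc
Hsph1: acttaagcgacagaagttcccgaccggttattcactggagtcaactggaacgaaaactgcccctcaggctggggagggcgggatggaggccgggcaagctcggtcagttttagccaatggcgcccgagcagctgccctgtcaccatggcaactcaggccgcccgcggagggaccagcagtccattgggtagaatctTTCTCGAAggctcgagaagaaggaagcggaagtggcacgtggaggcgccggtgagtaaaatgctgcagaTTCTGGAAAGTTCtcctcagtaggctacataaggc
Hspe1: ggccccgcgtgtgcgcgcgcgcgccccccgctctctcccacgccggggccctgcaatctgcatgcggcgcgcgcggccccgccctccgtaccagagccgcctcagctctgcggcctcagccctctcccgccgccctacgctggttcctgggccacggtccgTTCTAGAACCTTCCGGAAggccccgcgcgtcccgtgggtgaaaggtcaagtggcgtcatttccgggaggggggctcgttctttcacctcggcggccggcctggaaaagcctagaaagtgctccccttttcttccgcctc
Hspa1b had 1 run of 2 units, which began 104 bases before the start, and Hspb1 had 2 such runs, beginning 117 and 97 bases before it. Hsph1 had a run of 2 units that began 54 bases before the start and a run of 3 units that began 15 bases past it. Hspe1 and Hspd1 are neighbours transcribed away from each other, and their windows overlap. They share 1 run of 4 units, which began 89 bases before the Hspe1 start and 144 bases before the start of the first Hspd1 window. Hspd1 has a second window, at another start, and it held 0 matches. Dnajb1 had 0 matches in its windows, and of the 7 genes 6 had a window. Among all 32851 windows in the RefSeq table, 15.1% held a run of 2 units, 0.603% a run of 3 and 0.0244%, or 8 windows, a run of 4. A match describes these letters only and is no evidence of binding.

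**Figure D1:**
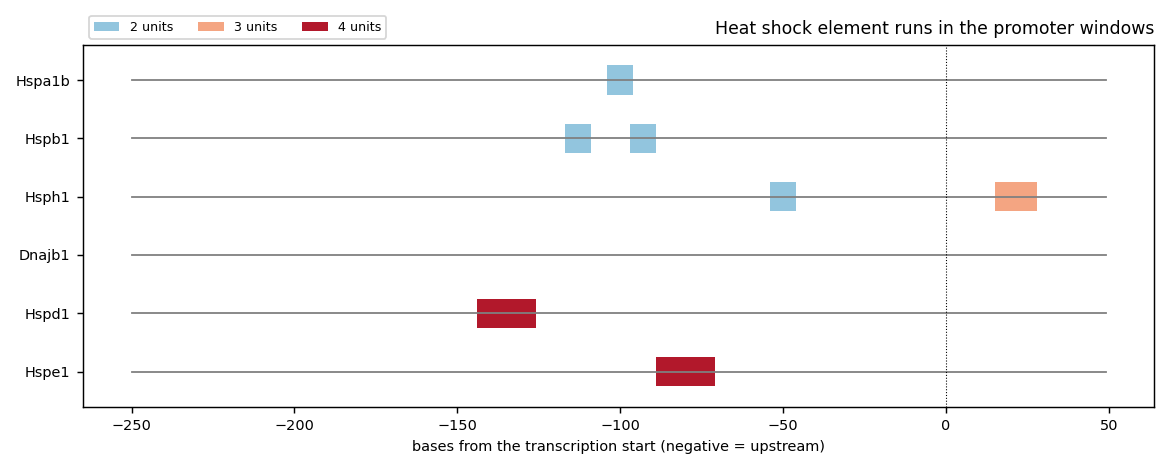
Heat shock element runs in the promoter windows of the 6 chaperone genes that have one, by distance in bases from the transcription start (dotted line; negative is upstream); the colour gives the number of units in the run, and Hsph1, Dnajb1 and Hspd1 are drawn for the first of their windows. The run of 4 units shared by Hspd1 and Hspe1 begins 144 and 89 bases before the starts drawn here, and Dnajb1 has none.

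In liver the 5 chaperones of the cytosol had differences of 0.33 to 1.30, livers labelled SPS1 KO minus control livers, and their highest values were on KO arrays 2 and 3. The mitochondrial pair had differences of -0.04 and 0.02. Of the 7 chaperones, 0 passed the limma test at an adjusted p under 0.05 over all 18193 genes, where 0.044% of all genes (8 genes) passed, 0.011% higher and 0.033% lower. At an unadjusted p under 0.05 there was 1 of 7, against 7.28% of all genes. The groups did not overlap for 2 of 7, both higher in livers labelled SPS1 KO, against 14.8% of all genes (8.42% higher and 6.36% lower). The difference was positive for 6 of 7 as deposited, against 54.2% of all genes, and for 5 of 7 after quantile normalization, where Hspe1 turned to -0.04. The median of the 7 differences was 0.42, against 0.03 over all genes and 0.02 over the 2964 genes at least as bright as the dimmest of the 7.

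Hspb1, the small heat shock protein HSP27, which holds unfolded proteins in a state from which others can refold them, had the largest liver difference of the 7. It stood at 10.56, 11.62 and 11.52 in livers labelled SPS1 KO and at 9.88, 9.66 and 10.25 in control livers. Every KO array was above every control array, and KO arrays 2 and 3 were well above KO array 1. The difference was 1.30 (SE 0.34, 95% interval 0.45 to 2.16, unadjusted p = 0.011), and limma's adjusted p was 0.504. The second Hspb1 probe set gave 1.06, with 9.31, 10.82 and 11.06 in livers labelled SPS1 KO and 9.41, 9.14 and 9.48 in control livers. There KO array 1 lay among the control arrays.

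Hspa1b, a stress-inducible HSP70 that refolds proteins with ATP, had the widest spread. It stood at 11.25, 13.68 and 13.88 in livers labelled SPS1 KO and at 13.09, 12.57 and 12.17 in control livers. KO array 1 was the lowest of the 6 arrays and KO arrays 2 and 3 were the highest, so the groups overlapped. KO array 2 was 5.39-fold and KO array 3 was 6.15-fold above KO array 1. The SD of 1.46 among the livers labelled SPS1 KO was at percentile 99.9 of the genes brighter than the median gene, whose median SD was 0.157, and the SD of 0.46 among control livers was at percentile 94.8. The difference between the groups was 0.33 (SE 0.76, 95% interval -1.58 to 2.24, limma adjusted p = 0.930). It was 1.17 without KO array 1, -0.04 without KO array 2 and -0.14 without KO array 3. The other Hspa1b probe sets gave 0.21 and 0.19, each with KO array 1 lowest and KO arrays 2 and 3 highest.

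Hspa1a, the neighbouring gene that encodes a nearly identical HSP70, is not one of the 7 and was read by a probe set of its own. It stood at 7.20, 10.61 and 11.02 in livers labelled SPS1 KO and at 9.40, 8.08 and 8.01 in control livers (difference 1.12, limma adjusted p = 0.840). The order of the arrays had the same extremes as for Hspa1b, with KO array 1 lowest and KO arrays 2 and 3 highest, 10.6-fold and 14.1-fold above KO array 1. The promoter windows of the pair were identical at 296 of 300 bases. Signal of one gene may reach the probe sets of the other, so the pair may not be independent readings.

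Hspa8, the constitutive HSP70 (HSC70), stood at 14.52, 14.70 and 15.06 in livers labelled SPS1 KO and at 14.23, 14.34 and 14.45 in control livers. Every KO array was above every control array, and the difference was 0.42 (SE 0.18, limma adjusted p = 0.701). It was 0.27 without KO array 3 and 0.26 after quantile normalization. Of its other 3 probe sets 2 gave 0.35 and 0.45 with groups that did not overlap, and the dimmest gave -0.0023 with groups that did.

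Hsph1, an HSP110 protein that exchanges nucleotide on HSP70, stood at 10.75, 11.52 and 11.92 in livers labelled SPS1 KO and at 10.95, 10.66 and 10.84 in control livers. KO array 1 lay among the control arrays and the other KO arrays lay above them (difference 0.58, SE 0.32, limma adjusted p = 0.742). The difference was 0.91 without KO array 1 and 0.32 without KO array 3. Its second probe set gave 0.72 with groups that did not overlap. Dnajb1, the HSP40 that delivers substrates to HSP70, stood at 10.48, 11.10 and 11.38 in livers labelled SPS1 KO and at 10.67, 10.33 and 10.38 in control livers. KO array 1 again lay among the control arrays (difference 0.53, SE 0.27, limma adjusted p = 0.730). The difference was 0.78 without KO array 1 and 0.33 without KO array 3, and the second Dnajb1 probe set gave 0.40.

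Hspd1 (HSP60), which forms the folding chamber, stood at 13.99, 14.02 and 13.93 in livers labelled SPS1 KO and at 13.93, 14.11 and 14.03 in control livers (difference -0.04, 95% interval -0.34 to 0.26, limma adjusted p = 0.945). Its lid, Hspe1 (HSP10), stood at 13.45, 13.58 and 13.56 in livers labelled SPS1 KO and at 13.45, 13.55 and 13.52 in control livers (difference 0.02, 95% interval -0.27 to 0.32, limma adjusted p = 0.971). The groups overlapped for both genes, and for the second Hspe1 probe set (0.16). The SDs among livers labelled SPS1 KO were 0.05 for Hspd1 and 0.07 for Hspe1, at percentiles 7.20 and 15.3 of the brighter genes.

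**Figure D2:**
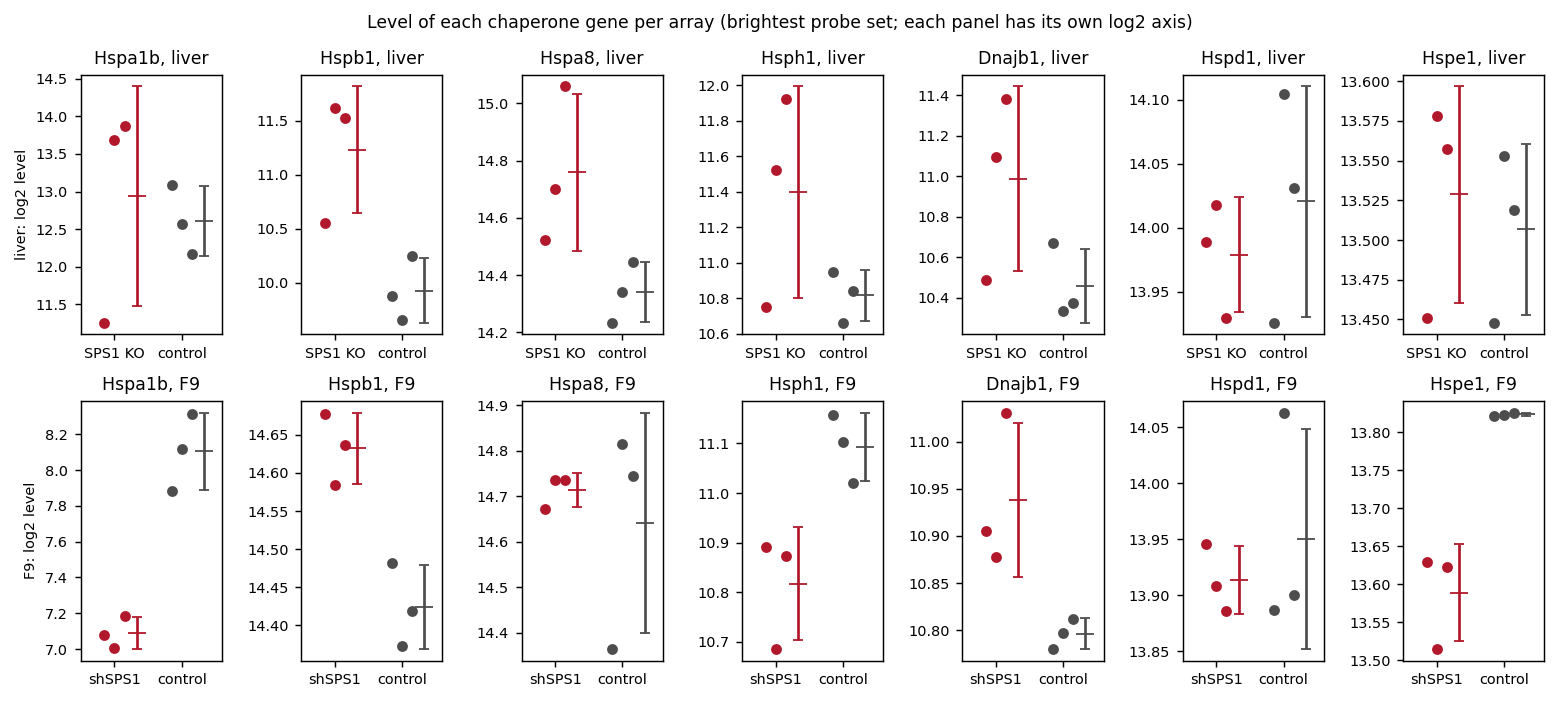
Levels of the 7 chaperone genes on each array in log2 units, with livers labelled SPS1 KO left of control livers (top row) and shSPS1 left of control F9 cells (bottom row); points are arrays 1 to 3 from left to right, bars are the mean and SD of 3 arrays, and each panel has its own axis. Hspa1b ranges from 11.25 to 13.88 in livers labelled SPS1 KO, while its shSPS1 F9 arrays (7.01 to 7.18) all lie below the control F9 arrays (7.88 to 8.31).

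Array by array, KO arrays 2 and 3 were the top 2 of 6 liver arrays for 6 of the 7 genes, all but Hspd1, and for Hspe1 by a margin of only 0.0044 over the highest control array. KO array 1 was the lowest array for Hspa1b, the third highest for Hspb1 and Hspa8, and among the control arrays for Hsph1 and Dnajb1. KO array 3 was the highest for 4 genes, KO array 2 for 2 and KO array 1 for 0. The median deviation of the 7 genes from the control mean was -0.03 on KO array 1, 0.64 on KO array 2 and 0.92 on KO array 3, against -0.05, -0.04 and 0.01 on the control arrays. Without KO array 1 the median of the 7 differences was 0.78, and 0 of 7 passed. These values order single arrays after they were seen and carry no test. The share of all genes with KO arrays 2 and 3 on top is not given here, so the order may not be particular to the chaperones. The median level of all genes was 7.45, 7.42 and 7.36 on KO arrays 1 to 3, and 7.33, 7.40 and 7.43 on control arrays 1 to 3.

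Markers of other kinds were read on the same arrays by group, where 54.2% of all genes were positive as deposited. Whether KO arrays 2 and 3 stand apart from KO array 1 in these markers is not shown here. The RNA had a RIN above 9 in every sample per the labels. Immediate early genes, which respond within minutes to handling and growth signals, had a summed linear level of 9123 to 11359 in livers labelled SPS1 KO and 9007 to 10490 in control livers, with 8 of 16 positive and 0 called. At an unadjusted p under 0.05 there were 4 of 16, against 7.28% of all genes. They were Nr4a1 (-0.61), which had the smallest p, Egr1 (-0.66), Jun (0.81) and Zfp36 (0.49), the last 3 named after their values were seen. The second Jun probe set gave -0.0067. Fos, also named after its values were seen, was at 1.49, with an SE of 0.92 when each probe set was fitted by itself. Hepatocyte markers had a summed linear level of 422700 to 442420 in livers labelled SPS1 KO and 309880 to 374420 in control livers. Of those, 10 of 11 were positive, with a median of 0.29, which was 0.02 after quantile normalization (7 of 11 positive). Kupffer cell and macrophage markers were negative for 10 of 11 (summed linear level 11528 to 14921 in livers labelled SPS1 KO and 14053 to 17719 in control livers, median -0.24). Lymphocyte and neutrophil markers were negative for 9 of 11 (summed linear level 889 to 1129 in livers labelled SPS1 KO and 1141 to 1465 in control livers). Stellate cell and fibroblast markers (4 of 9 positive), endothelial markers (2 of 7 positive) and cholangiocyte markers (3 of 4 positive) had 0 called, as did every marker list in liver by limma. The part of these cells in the chaperone values was not tested, and in bulk tissue fewer cells of a type and less RNA per cell cannot be told apart.

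**Figure D3:**
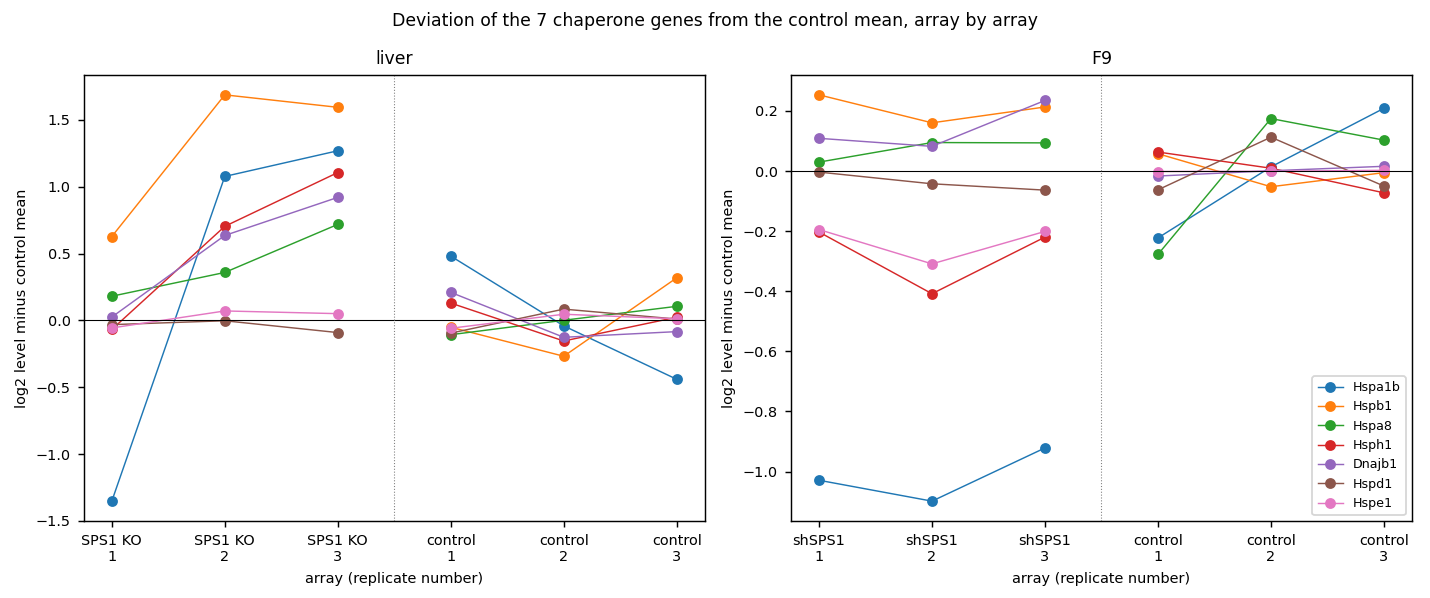
Deviation of each of the 7 chaperone genes from its control mean (log2) on every array of the liver (left) and F9 (right) comparisons; each line only joins the points of a gene. In liver KO arrays 2 and 3 lie above the control arrays for the cytosolic chaperones and KO array 1 does not, except for Hspb1 and Hspa8; in F9 cells Hspa1b lies between -1.10 and -0.92 on the shSPS1 arrays.

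In F9 cells Hspa1b fell with the Sephs1 knockdown, and it was the only one of the 7 chaperones to pass the test as fitted here. In 5 alternative settings 2 to 4 of the 7 passed, with Hspb1, Hsph1 or Hspe1 added. The share of all genes called was 7.20% (2.56% higher and 4.64% lower). The groups did not overlap for 5 of 7, of which 2 were higher and 3 lower in shSPS1 cells, against 27.9% of all genes (12.2% higher and 15.7% lower). At an unadjusted p under 0.05 there were 4 of 7, against 20.9% of all genes. The median of the 7 differences was -0.04, against -0.01 over all genes, and it was 0.01 after each array was centred on its median.

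Hspa1b stood at 7.08, 7.01 and 7.18 in shSPS1 cells, against 7.88, 8.12 and 8.31 in control cells. All shSPS1 arrays were below all control arrays, by more than the spread within either group. The difference was -1.02 (SE 0.11, 95% interval -1.28 to -0.76), a 2.02-fold lower level, with a limma adjusted p of 0.0018. It passed in each of the 15 alternative settings, with adjusted p from 0.00089 to 0.017 when any array was left out. The other Hspa1b probe sets gave -0.96 and -1.04, each without overlap. Hspa1a was dimmer, at 4.36, 4.39 and 4.06 in shSPS1 cells and 4.87, 4.55 and 4.81 in control cells (difference -0.47, limma adjusted p = 0.053).

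The members that work with HSP70 gave smaller differences of either sign. Hsph1 stood at 10.89, 10.69 and 10.87 in shSPS1 cells and at 11.16, 11.10 and 11.02 in control cells. The groups did not overlap, and the difference was -0.28 (SE 0.08, limma adjusted p = 0.087). Its second probe set gave -0.39, which passed when each probe set was tested by itself (limma adjusted p = 0.044). Dnajb1 stood at 10.91, 10.88 and 11.03 in shSPS1 cells and at 10.78, 10.80 and 10.81 in control cells, without overlap (difference 0.14, SE 0.07, limma adjusted p = 0.294). Its second probe set gave 0.01 with groups that overlapped. Hspa8 stood at 14.67, 14.74 and 14.73 in shSPS1 cells and at 14.36, 14.82 and 14.74 in control cells, with control array 1 lowest (difference 0.07, limma adjusted p = 0.797).

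Hspb1 and the mitochondrial pair followed. Hspb1 stood at 14.68, 14.58 and 14.64 in shSPS1 cells and at 14.48, 14.37 and 14.42 in control cells, every shSPS1 array above every control array (difference 0.21, SE 0.07, limma adjusted p = 0.113), and its second probe set gave 0.19. Hspe1 stood at 13.63, 13.51 and 13.62 in shSPS1 cells and at 13.82, 13.82 and 13.83 in control cells, every shSPS1 array lower (difference -0.23, SE 0.07, limma adjusted p = 0.074), and its second probe set gave -0.25. Its partner Hspd1 stood at 13.95, 13.91 and 13.89 in shSPS1 cells and at 13.89, 14.06 and 13.90 in control cells, with overlap (difference -0.04, SE 0.07, limma adjusted p = 0.842). Hspd1 and Hspe1 are the pair that shares the run of 4 units printed above.

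**Figure D4:**
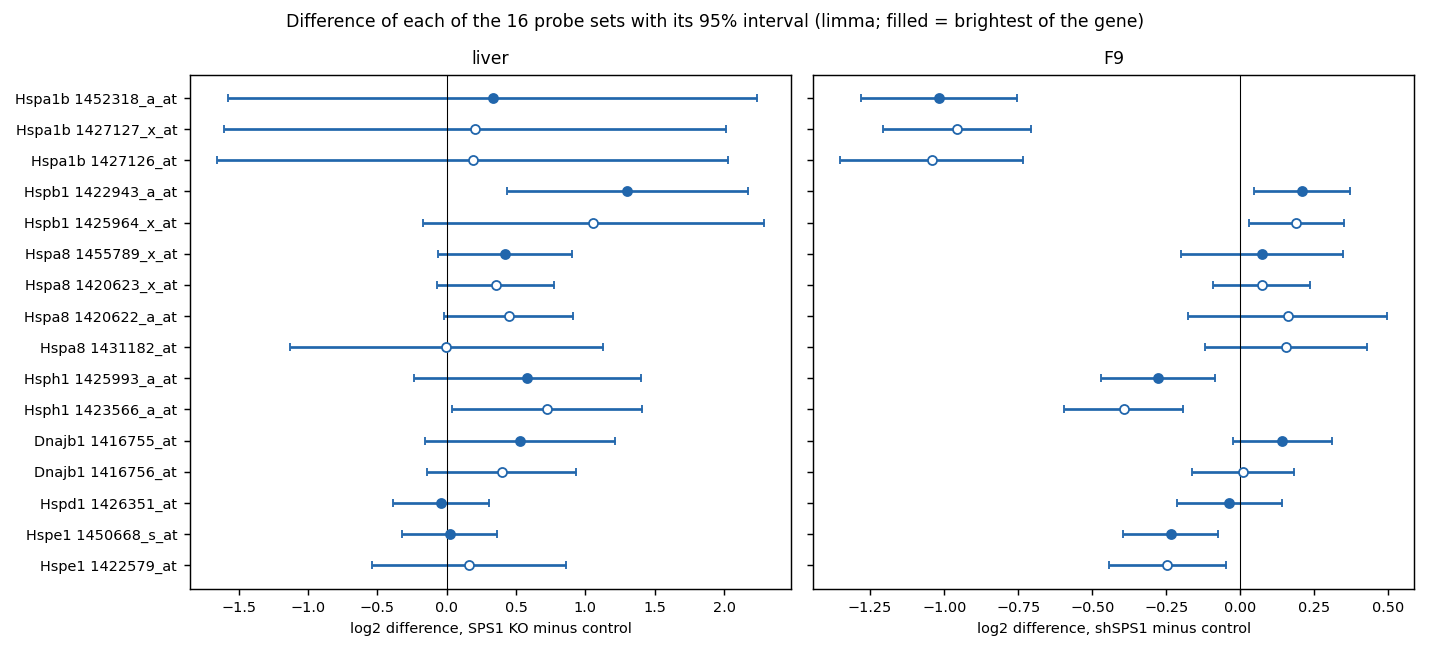
Log2 difference, livers labelled SPS1 KO minus control livers (left) and shSPS1 minus control F9 cells (right), of the 16 probe sets of the 7 chaperone genes, with 95% intervals from limma fitted on every probe set; filled points are the brightest probe set of a gene. In F9 cells the 3 Hspa1b probe sets lie between -1.04 and -0.96, and in liver their 3 intervals include 0.

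The liver effect and the F9 effect were set against each other as differences within each table. The liver effect minus the F9 effect was 1.35 for Hspa1b, 1.09 for Hspb1, 0.86 for Hsph1, 0.39 for Dnajb1, 0.35 for Hspa8, 0.26 for Hspe1 and -0.01 for Hspd1. In an exact two-sided permutation test with labels exchanged within each tissue (400 relabellings, smallest possible p 0.005) the p-values were 0.025 for Hsph1 and for Hspe1, 0.16 for Hspa1b and 0.15 for Hspb1, and 0.24 or more for the others. After Benjamini-Hochberg adjustment over these 7 tests 0 passed. The test takes as its null that neither label had an effect, so a pass may come from 1 tissue alone. Without KO array 1, 3 of the 7 passed (Hspa1b at 2.19, Hsph1 at 1.18 and Hspe1 at 0.30), and without control F9 array 1 only Hspa8 did (0.49). For Hspe1 the liver difference without KO array 1 was 0.06 and the F9 difference was -0.23. KO array 1 had already been seen to be the lowest liver array for Hspa1b.

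The rest of the chaperone network was listed by role. Of 100 genes 95 were measured, and in liver 0 of 95 were called, with 6 at an unadjusted p under 0.05, where 7.28% of all genes were. As deposited 62 of 95 were positive (median 0.07), against 54.2% of all genes, and 58 after median centring. The 6 were the J-domain gene Dnajb9 (0.76), the HSP70 relatives Hspa13 (0.57) and Hspa5 (0.31), the HSP70 cochaperone Bag3 (0.67), the HSP90 cochaperone Fkbp5 (0.77), and the inducible HSP90 gene Hsp90aa1 (0.43), with limma adjusted p from 0.417 to 0.677. Other probe sets gave 0.15 and 0.06 for Hspa5 and 0.74, 0.19, 0.15 and -0.33 for Hsp90aa1. For Hspa13 they gave 0.49, 0.38 and -0.21, and for Fkbp5 2.35 and 1.00. Dnajb9 stood at 13.06, 13.49 and 13.26 in livers labelled SPS1 KO and at 12.40, 12.72 and 12.41 in control livers, without overlap. Hsp90aa1 stood at 13.40, 13.78 and 13.79 in livers labelled SPS1 KO and at 13.38, 13.17 and 13.12 in control livers. Bag3 stood at 10.38, 10.74 and 11.03 in livers labelled SPS1 KO and at 10.28, 10.02 and 9.86 in control livers. KO array 1 was the lowest of the KO arrays for each of these 3 genes. Array levels of Hspa13, Hspa5 and Fkbp5 are not given here, so this order is shown for only part of the 6.

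By group in liver, signs are read against the 54.2% of all genes that were positive as deposited. The small heat shock proteins were positive for 8 of 8 as deposited (median 0.48) and for 7 of 8 after quantile normalization (median 0.43). At a limma unadjusted p under 0.05 there were 0 of 8, against 7.28% of all genes. Their summed linear level overlapped, at 3740 to 6131 in livers labelled SPS1 KO and 4232 to 4649 in control livers. Some other probe sets were negative, with Hspb7 at -1.13 and Hspb8 at -0.25. Hspb9 was at 0.67, with levels of only 1.65 to 3.20 over the 6 arrays, and Hspb6 was at 0.52. J-domain proteins were positive for 16 of 20 (median 0.12), with Dnajc2 at 0.27, and the HSP70 family and HSP110 relatives for 8 of 12 (median 0.15). The cytosolic chaperonin and prefoldin list was positive for 5 of 14 (median -0.04), with Pfdn2 at -0.25 and Cct7 at 0.21. Mitochondrial protein quality control genes were positive for 5 of 9 (median 0.02), with Htra2 at 0.21 and Timm44 at 0.19. Of the other heat shock inducible genes 3 of 5 were positive, with P4ha1 at 0.41 and the collagen chaperone Serpinh1 at 0.35. The measured heat shock factors Hsf2 (-0.53), Hsf4 (-0.18) and Hsf5 (-0.77) were all negative, none of them called. With each probe set fitted by itself their SEs were 0.25, 0.86 and 1.22, and the second Hsf2 probe set gave -0.21. The 3 together had a summed linear level of only 256 to 336 in livers labelled SPS1 KO and 296 to 392 in control livers.

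In F9 cells 11 of the 95 network genes were called, against 7.20% of all genes, and 28 were at an unadjusted p under 0.05, against 20.9% of all genes. When any 1 array was left out, 1 to 7 were called, the fewest without shSPS1 array 2 or 3. The number of positive differences was 35 of 95 as deposited, where 46.8% of all genes were positive, and 46 of 95 after median centring. The largest of the called changes was in Serpinh1, the collagen chaperone HSP47, which fell to 8.93, 9.08 and 8.91 in shSPS1 cells, against 9.82, 9.86 and 9.85 in control cells. The difference of -0.87 (limma adjusted p = 0.00055) passed in each of the 15 alternative settings, and Serpinh1 was the only called network gene to do so. The others that fell were Grpel2 (-0.40), the nucleotide exchange factor of mitochondrial HSP70, the HSP70 cochaperone Bag2 (-0.39), Fkbp5 (-0.35), the HSP110 relative Hspa4l (-0.43) and Timm44 (-0.32), which tethers HSP70 to the mitochondrial import channel. Hspa4l, Bag2 and Timm44 were not called after median centring. With averaged probe sets Hspa4l was at -0.08 (limma adjusted p = 0.675), Fkbp5 at -0.15 (0.325), Grpel2 at -0.26 (0.070) and Timm44 at -0.25 (0.055). When any 1 array was left out, Grpel2 passed in 3 of 6 fits, Fkbp5, Bag2 and Hspa4l in 1 of 6 each and Timm44 in 0 of 6.

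The network genes that rose in F9 cells were Ahsa1 (0.39), which activates the ATPase of HSP90, the autophagy receptor Sqstm1 (0.40), the small heat shock protein Cryab (0.48), Dnajb5 (0.29) and Bag5 (0.32). Bag5 was named after its values were seen. Ahsa1 stood at 12.27, 12.39 and 12.32 in shSPS1 cells and at 11.88, 11.98 and 11.97 in control cells (limma adjusted p = 0.014). Sqstm1 stood at 10.20, 10.19 and 10.18 in shSPS1 cells and at 9.89, 9.72 and 9.74 in control cells (limma adjusted p = 0.013). When any 1 array was left out, Ahsa1 passed in 3 of 6 fits Sqstm1 in 2 of 6, Cryab in 1 of 6, and Dnajb5 and Bag5 in 0 of 6. With averaged probe sets Cryab was at 0.19 (limma adjusted p = 0.259), Dnajb5 at 0.14 (0.419) and Bag5 at 0.23 (0.087). Cryab was dim, at 4.41 to 4.57 in shSPS1 cells and 3.85 to 4.22 in control cells.

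By group in F9 cells, calls are read against the 7.20% of all genes called. Signs are read against the 46.8% of all genes that were positive as deposited. The HSP70 family and HSP110 relatives had 1 of 12 called (Hspa4l, lower; median -0.13), J-domain proteins 1 of 20 (Dnajb5, higher; median 0.03) and the cochaperones 5 of 21 (2 higher, 3 lower; median -0.09). The mitochondrial list had 1 of 9 called (Timm44, lower; median -0.17), with Afg3l2 at -0.25. The chaperonin and prefoldin list had 0 of 14 called and 12 of 14 negative (median -0.10), or 11 of 14 after median centring (median -0.05), with Cct3 at -0.22 and Tcp1 at -0.15. The HSP90 family had 0 of 3 called, with Hsp90aa1 at 0.20 and the mitochondrial Trap1 at -0.23. Heat shock factors had 0 of 3 called, with Hsf4 at -0.11 and Hsf2 at -0.16.

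Marker lists were read in F9 cells as well, where 46.8% of all genes were positive as deposited. Among immediate early genes Jun (0.90) and Klf6 (0.43) rose and Egr1 (-0.52) fell, and 8 of 16 were positive. Embryonal carcinoma markers were positive for 7 of 8 with 0 called (summed linear level 80629 to 81458 in shSPS1 cells and 70838 to 79622 in control cells). Among endoderm markers Sox7 (0.71) rose and Lamb1 (-0.35) fell, while 5 of 11 were positive (median -0.0019). Their summed linear level was 2458 to 2485 in shSPS1 cells and 2340 to 2446 in control cells. The macrophage gene Cd68 (0.71) rose, while 4 of 11 genes of its list were positive (median -0.0093) and 1 was called. The endothelial gene Pecam1 (-0.74) fell, while 3 of 7 genes of its list were positive (median -0.067) and 1 was called. Over all genes 7.20% were called. The sums of those 2 lists were 270 to 285 and 190 to 218 in shSPS1 cells, and 251 to 296 and 227 to 278 in control cells. Their part in the chaperone values was not tested.

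**Figure D5:**
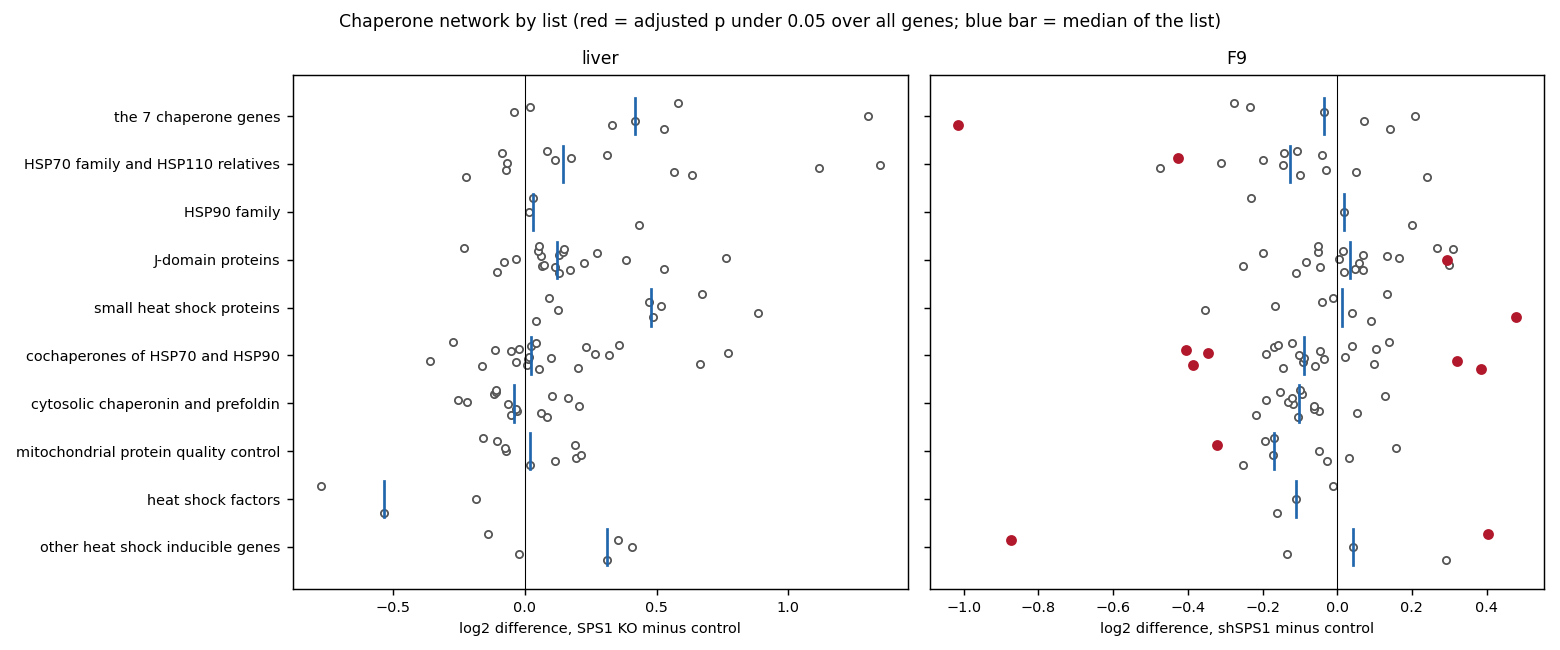
Log2 difference of each measured gene of the chaperone network by list, livers labelled SPS1 KO minus control livers (left) and shSPS1 minus control F9 cells (right); red points passed an adjusted p under 0.05 over all genes and blue bars are list medians. No point is red in liver, and in F9 cells the farthest red points are Hspa1b at -1.02 and Serpinh1 at -0.87.

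Heat shock elements in the network are given as a description. Of the 81 other network genes with a promoter window 19 (among them Hspa1a, Bag3 and Fkbp4) held a run of 2 units, against 17.0% of all 27025 genes with a window. Runs of 3 units were in Chordc1 and Dnajb6, and a run of 4 units was in Chordc1. Serpinh1 and Ahsa1 were not among the genes with a match. No match says only that these letters are not in the window.

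The genes whose profile over the 6 arrays lay nearest to the mean profile of the 7 chaperones, by root mean square difference of centred log2 values among the brighter genes, were Gadd45gip1 (0.082), Serpinb6e (0.094) and Tnnc1 (0.099) in liver. In F9 cells they were Gcsh (0.017), Sh3d19 (0.018) and Enoph1 (0.021). The mean profile in liver was -0.32, 0.42 and 0.57 on the arrays of livers labelled SPS1 KO and -0.15, -0.29 and -0.23 on the control arrays. In F9 cells it was -0.07, -0.14 and -0.04 on the shSPS1 arrays and 0.02, 0.12 and 0.11 on the control arrays. Hspa1b weighs most in this F9 mean, with a difference of -1.02, while the median of the 7 differences was -0.04. Nearness to the mean is therefore not nearness to each of the 7 genes.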

How the data were processed

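RNA of 6 livers and 6 F9 samples, extracted with Trizol and labelled from 100 ng per the labels' protocols, was measured on Affymetrix arrays of 45101 probe sets. The deposited values are log2 levels made by the authors. Per the submitters' processing notes R 3.0.1 and affy 1.38.1 were used, in roles the notes do not give, and the background correction, summary and normalization are not given in the sources used here. A deposited table of all 12 arrays repeats these log2 values exactly (largest difference 0), and the liver and F9 arrays have different distributions in it, so levels were compared only within a tissue. The number of arrays limits the precision.

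Probe sets with several genes (932), with no symbol (9211) and the 64 Affymetrix controls were left out, which left 34945, of which 34741 matched the gene table by Entrez identifier. The brightest probe set of each of 18193 genes was tested with limma 3.58.1 (R 4.3.3, lmFit and eBayes, two-sided) in each comparison, each on its own 6 arrays with no covariate. Calls were made where p, adjusted by Benjamini-Hochberg across all genes, was under 0.05. Intervals are 95% intervals of limma. Network genes were named where called, up to the 10 with the smallest p, and otherwise from the 2 per list with the smallest p, exceptions being marked. The likeness measure took the 3 nearest genes. Promoter windows are RefSeq sequences (GRCm38.p6).

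The members and lists were chosen with earlier results of these data known. The procedure was tested on simulated data. Alternatives were quantile normalization, median centring, averaged probe sets per gene, each probe set by itself, removal of the dimmest 25% or 50% of genes, array weights, a robust prior with an intensity trend, a replicate block and each array left out in turn.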

Additional observations from a re-analysis of the deposited data

How the results depend on the processing

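In liver 0 of the 7 chaperones were called in any of the 15 alternative settings, and the median of their differences was 0.27 to 0.78 when 1 array was left out, the highest without KO array 1. In F9 cells Hspa1b passed in all 15, and 1 of 7 was called in every fit that left out an array. In F9 cells 2 of 7 were called with averaged probe sets and without the dimmest 25% of genes, and 4 of 7 without the dimmest 50% of genes, with the intensity trend and with array weights. Hspb1, Hsph1 and Hspe1 were the genes added in the settings with 4. The F9 median was 0.014 after median centring and -0.068 to 0.020 when 1 array was left out.

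Differences near 0 changed sign. In liver Hspe1 was -0.039 after quantile normalization, and when 1 array was left out it was -0.0075 to 0.061, with Hspd1 at -0.089 to 0.00072 and Hspa1b at -0.14 to 1.17. In F9 cells Hspd1 was 0.014 after median centring, Hspa8 was -0.025 with array weights, and when 1 array was left out Hspa8 was -0.066 to 0.16 and Hspd1 was -0.068 to 0.020. The liver effect minus the F9 effect of Hspd1 was -0.061 to 0.037 when 1 array was left out, and 0 to 3 of the 7 such differences passed. The causes were not tested.

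The network count in liver was 1 with the intensity trend (Dnajb9). In F9 cells it was 5 with the mean of probe sets, 7 with each probe set by itself, 19 with array weights and 1 to 7 when 1 array was left out, lowest without shSPS1 array 2 or 3. Over all genes 8 were called in liver, and 89 with the intensity trend, 25 and 67 without the dimmest 25% and 50%, 2 with the mean of probe sets, 3 with each probe set by itself and 0 to 3 when 1 array was left out. In F9 cells 1310 were called, 2285 with array weights and 524 to 1452 when 1 array was left out. Median centring gave 708 higher and 627 lower in F9 cells, against 465 and 845 as deposited.

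Replicate numbers gave no sign of pairing. Same-numbered arrays correlated in their deviations from the group means at -0.217, 0.01 and -0.146 in F9 cells and at -0.047, 0.013 and -0.005 in liver. Arrays of unlike number ran from -0.219 to 0.242 in F9 cells and from -0.036 to 0.04 in liver. These values cannot settle whether the samples were processed in pairs. With the replicate block 2 network genes were called in F9 cells, over all genes 662 in F9 cells and 0 in liver, and Hspa1b remained called in F9 cells.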
